A study of Mus musculus with 23 samples.

Results

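The genes described here encode p97 (gene Vcp) and 9 of its cofactors, Nsfl1c, Ufd1, Nploc4, Faf1, Faf2, Ubxn1, Ubxn4, Ubxn6 and Derl1. They were taken by gene symbol, 10 of 54446 genes in the count table of a first set of libraries, and by Ensembl gene identifier in a second set, where all 10 were among 15624 listed genes. RNA was sequenced from mouse skeletal muscle, either innervated or after surgical loss of the nerve supply (denervation), which leads to atrophy. The first set held 9 libraries: 3 of innervated muscle of WT mice, 3 of WT muscle denervated for 10 d and 3 of muscle of PAX4 KO mice denervated for 10 d. The second set held 8 libraries, all of muscle denervated for 10 d: 2 labelled WT con (libraries 2 and 3), 3 labelled NRF1 KD and 3 labelled NRF1-PAX4 double KD. PAX4 is a transcription factor, and the labels write the other target as NRF1PAL, that is alpha-PAL, encoded by Nrf1, rather than NFE2L1, which shares the alias NRF1. The labels give no age, no muscle, no means of knockdown and no cell type in which the genes were targeted.

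As background, p97 is a hexameric ATPase that unfolds ubiquitinated proteins and pulls them out of membranes, complexes and chromatin, often ahead of their breakdown by the proteasome. Its cofactors decide where it works. The heterodimer of UFD1 and NPLOC4 binds ubiquitin chains, NSFL1C (p47) serves membrane fusion, and proteins with a UBX domain bring p97 to substrates or to membranes. DERL1 and UBXN4 (erasin) sit in the membrane of the endoplasmic reticulum, where p97 takes part in endoplasmic reticulum-associated degradation (ERAD), the export of faulty proteins to the cytosol. In denervated muscle the proteasome has a known part in the loss of contractile protein.

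The promoters shown here are the 250 bases before the annotated start, from RefSeq on GRCm38.p6, where 9 of the 10 genes, all but Derl1, had an entry, with 11 windows in all. These starts differ for some genes from the gene coordinates given further below. The Ubxn4 window runs past the gene start at 128243964, so part of it lies inside the gene as located there. The Ufd1 window lies wholly inside its gene. The sequence of Nploc4 (chr11:120437701-120437950, minus strand) is printed because it alone among these windows held the core motif of the alpha-PAL site (10 bases with a free base inside, both strands searched), at 57 to 48 bases before the start. That of Vcp (chr4:43000508-43000757, minus strand) is printed for 4 matches to CCAAT on either strand, a motif chosen after the sequences were seen. That of Ubxn4 (chr1:128243887-128244136, plus strand) is printed because this gene had the largest change with denervation, and it held neither motif. Capitals mark the matches, and each line reads 5′ to 3′ on the strand of the gene.
Nploc4: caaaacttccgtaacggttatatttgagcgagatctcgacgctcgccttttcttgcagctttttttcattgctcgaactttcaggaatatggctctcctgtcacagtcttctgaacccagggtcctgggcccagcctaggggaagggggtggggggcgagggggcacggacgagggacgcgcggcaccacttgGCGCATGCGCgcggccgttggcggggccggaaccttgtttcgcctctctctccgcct
Vcp: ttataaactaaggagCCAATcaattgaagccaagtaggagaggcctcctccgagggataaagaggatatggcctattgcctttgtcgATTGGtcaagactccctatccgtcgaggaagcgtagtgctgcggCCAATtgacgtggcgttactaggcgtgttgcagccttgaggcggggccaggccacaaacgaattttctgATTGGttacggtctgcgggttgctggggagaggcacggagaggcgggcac
Ubxn4: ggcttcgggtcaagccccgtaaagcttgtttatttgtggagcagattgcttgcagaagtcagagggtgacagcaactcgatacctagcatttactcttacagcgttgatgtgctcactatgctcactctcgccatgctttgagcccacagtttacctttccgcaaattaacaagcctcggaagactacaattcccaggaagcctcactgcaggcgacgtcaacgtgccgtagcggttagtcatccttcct
Of 32851 mouse promoter windows of this length, 3.74% held the alpha-PAL core, 33.8% held CCAAT at least once and 0.840% held it 4 times or more. Among the other windows, CCAAT was found for Ubxn6 only, in 2 of its 3 windows. A match is a description of letters in a window and does not show binding.

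Library depth ran from 21716216 to 42821396 counts in the first set and from 23740769 to 30165765 recovered reads in the second. Whether the libraries of a group came from separate animals is not stated, so p-values measure only the spread between libraries, part of which may be technical. The knockout and knockdown could not be checked from the targeted transcripts. Pax4 had no counts in the first set, where a limit of 3 counts allows up to 0.0722 to 0.148 CPM per library (counting error only), and was not listed in the second. Nrf1 was at 444 to 488 normalised counts in WT con and at 476 to 524 in the libraries labelled NRF1 KD (log2 fold change 0.10 ± 0.12 SE, limma adjusted p = 0.618). In double KD it was at 427 to 454 (log2 fold change against WT con -0.07 ± 0.12 SE, limma adjusted p = 0.784). Groups are therefore named by label only. Muscle fibre markers such as Acta1 and Ckm were abundant in every library. Tnnc2, another marker of the same list, was not abundant in the first set. Its mean was 10.7 CPM in innervated WT, 4.87 in denervated WT and 4.62 in PAX4 KO muscle. In the second set it had a mean of 229774 normalised counts in WT con and 202851 in NRF1 KD. The cause of this difference between the sets was not tested. 2 WT libraries stood apart from their groups: innervated library 2 had a summed level of 8 denervation-response genes of 285 CPM, against 35.5 and 42.2 in the other innervated libraries. Denervated WT library 1 had 1286 CPM for the same genes, against 2208 and 2256 in its group, and 371 CPM for 8 macrophage markers, against 213 and 215.

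On GRCm38, Vcp lies on chromosome 4 (42979963 to 43000507, minus strand), Ubxn4 on chromosome 1 (128243964 to 128279378, plus strand), Derl1 on chromosome 15 (57869502 to 57892448, minus strand) and Nploc4 on chromosome 11 (120380370 to 120437708, minus strand). Vcp was the most abundant of the 10 transcripts per kilobase of exon in the first set. In innervated WT muscle it stood at 98.8 ± 7.11 CPM per kb (counts scaled to TMM library sizes, per kb; SD, n = 3), followed by Ubxn1 at 38.8 ± 2.68, Derl1 at 24.7 ± 0.357, Nsfl1c at 20.7 ± 1.32 and Nploc4 at 19.0 ± 0.375. Ubxn4 (16.3 ± 2.70), Faf1 (14.1 ± 1.23) and Ufd1 (12.0 ± 0.124) came next on the same scale, and Ubxn6 (2.70 ± 0.397) and Faf2 (2.32 ± 0.0588) were lowest. The level of Ubxn6 relative to Vcp was far higher in the second set, as given below, so its low place holds for the first set only. On this scale the libraries of Ubxn4 overlapped those of Nploc4 and of Faf1, and those of Ubxn6 overlapped those of Faf2, while the other neighbours in this order did not overlap. In denervated WT muscle Ubxn1 (44.5 ± 4.36), Ubxn4 (41.9 ± 4.03) and Derl1 (41.2 ± 5.33 CPM per kb) stood together as the most abundant cofactors. Ubxn4 per kb came to 16.7 ± 4.01% of Vcp in innervated muscle, 39.2 ± 1.42% in denervated WT and 39.1 ± 1.20% in denervated PAX4 KO muscle.

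**Figure D1:**
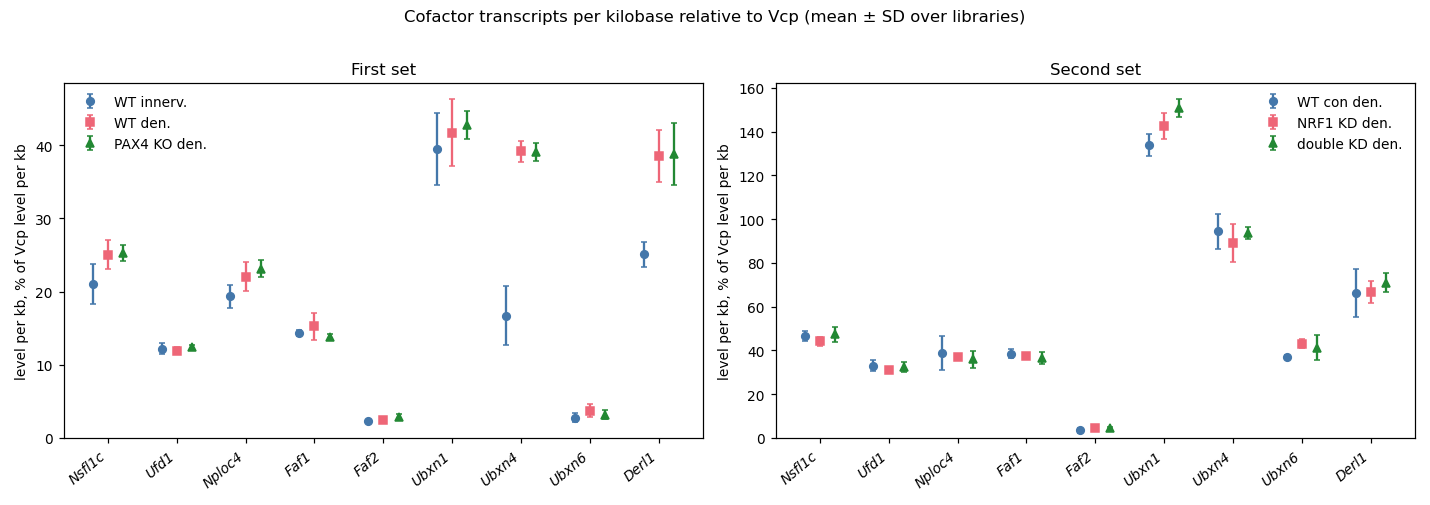
Level of each cofactor transcript per kilobase of exon as a percentage of the Vcp level per kilobase, mean ± SD over libraries, in the first set (left) and the second set (right). Ubxn4 and Derl1 moved up relative to Vcp with denervation, to 39.2% for Ubxn4 in WT, while in the second set Ubxn4 ran from 79.3 to 99.9% over all libraries.

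In the second set, where every muscle was denervated, Ubxn4 was at 79.3 to 99.9% and Ubxn1 at 130 to 155% of Vcp per kb over the 8 libraries. The second table was normalised separately, and levels across the 2 sets are given side by side without a test. Ubxn6 differed most between them: it lay at 2.33 to 4.75% of Vcp per kb in the first set and at 35.5 to 47.1% in the second. Of the exon bases of Ubxn6, 81.8% overlap Chaf1a on the opposite strand, and the strandedness of the counting is not given in the sources used here, so reads of this pair cannot be told apart. Chaf1a itself held 16 to 79 raw counts per library in the first set, against 306 to 1064 for Ubxn6, and 70.3 to 156 normalised counts in the second, against 3409 to 4297. The cause of the difference in Ubxn6 between the sets was not tested.

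Denervation of WT muscle raised Ubxn4, Derl1 and Nsfl1c, while Vcp and Ufd1 overlapped their innervated levels. Called genes (edgeR quasi-likelihood test, Benjamini-Hochberg adjusted p under 0.05) numbered 3 of 10 higher and 0 lower, beside 16.5% of 16146 genes called higher. The median log2 fold change of the 10 was 0.26, beside 0.02 over all genes, and all 10 were positive. In 6 of 10 the denervated libraries lay wholly above the innervated ones, as they did for 23.9% of all genes.

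Of the cofactors known from the endoplasmic reticulum, Ubxn4 and Derl1 rose and Faf2 did not pass. Ubxn4 stood at 69.4, 90.4 and 68.1 CPM in innervated libraries 1 to 3 and at 184, 217 and 185 CPM in the denervated WT libraries. Every denervated library was above every innervated one, and innervated library 2, which held denervation-response genes, was the highest of its group. The change was 2.57-fold (log2 1.36 ± 0.14 SE, adjusted p = 0.000184), above that of 94.0% of all genes tested. Derl1, a channel-forming component of ERAD, stood at 83.5, 81.8 and 81.2 CPM in innervated muscle and at 118, 153 and 140 CPM after denervation. The innervated libraries lay close together, and the lowest denervated library was the one that stood apart. Derl1 rose 1.67-fold (log2 0.74 ± 0.12, adjusted p = 0.00150). Faf2 (UBXD8), a UBX protein of the endoplasmic reticulum and lipid droplets, stood at 18.8, 18.5 and 19.4 CPM and then at 21.6, 20.6 and 20.9 CPM, without overlap. Its log2 fold change of 0.15 ± 0.09 did not pass (adjusted p = 0.228).

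The gene of the ATPase itself overlapped between the groups. Vcp stood at 510, 442 and 486 CPM in innervated and at 502, 554 and 500 CPM in denervated WT libraries. Innervated library 1 lay above 2 of the 3 denervated libraries, and the log2 fold change was 0.11 ± 0.12 (adjusted p = 0.484). Nsfl1c stood at 81.9, 87.3 and 76.9 CPM in innervated muscle and at 95.4, 111 and 111 CPM in denervated muscle. The groups did not overlap, and the gene rose 1.29-fold (log2 0.37 ± 0.11, adjusted p = 0.0294).

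Neither partner of the ubiquitin-binding heterodimer passed the test. Ufd1 stood at 52.6, 51.5 and 52.2 CPM and then at 51.2, 59.4 and 55.2 CPM, with overlapping groups (log2 0.09 ± 0.09, adjusted p = 0.515). Nploc4 stood at 91.7, 92.0 and 88.8 CPM and then at 98.4, 122 and 117 CPM, without overlap (log2 0.31 ± 0.12, adjusted p = 0.0661). The log2 ratio of Ufd1 to Nploc4 counts was -0.80 ± 0.04 in innervated and -1.02 ± 0.07 in denervated WT libraries (SD, n = 3 each). The difference of -0.22 had a two-sided exact permutation p = 0.1, the smallest that 3 against 3 allows (0.2 when adjusted over the 6 comparisons made).

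The remaining UBX cofactors bind ubiquitinated cargo or regulate p97 in the cytosol. Ubxn6 (UBXD1), known from the handling of damaged lysosomes, stood at 15.1, 17.8 and 13.3 CPM and then at 18.5, 21.1 and 27.8 CPM (log2 0.55 ± 0.20, adjusted p = 0.0609). Faf1, which holds ubiquitin-binding and UBX domains, had 66.2 to 78.6 CPM in innervated and 70.5 to 89.9 CPM in denervated libraries. Ubxn1 had 109 to 125 and then 121 to 148 CPM. Both overlapped between the groups, with log2 fold changes of 0.21 ± 0.13 and 0.20 ± 0.11 (adjusted p = 0.230 and 0.208).

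**Figure D2:**
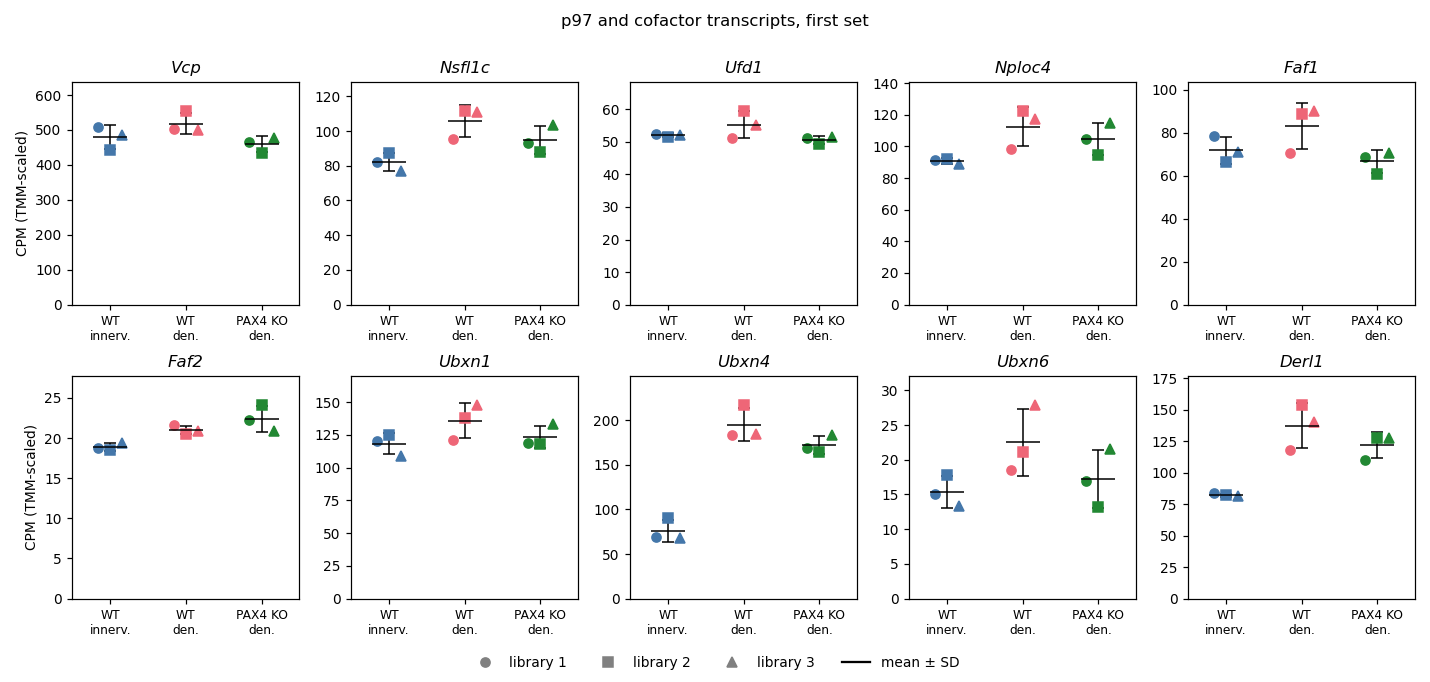
CPM of each gene in the 9 libraries of the first set (points, library numbers by shape), with the mean and SD of each group in black. Innervated and denervated libraries of Ubxn4, Derl1 and Nsfl1c do not overlap, while those of Vcp and Ufd1 do. Ubxn4 ran from 68.1 to 90.4 CPM in innervated muscle and from 165 to 217 CPM in the 6 denervated libraries.

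Ubxn4 and Derl1 were called in all 12 alternatives run for this comparison, while Nsfl1c was called in 6. The innervated and denervated WT columns carry the same 3 numbers, and the sources used here do not say whether these mark shared animals. With the number as a block, Nsfl1c was not called (adjusted p = 0.0508), Ubxn6 was (adjusted p = 0.0414), and Ubxn4 and Derl1 stayed called, in a fit that called 16.5% of all genes higher. Without denervated WT library 1, 5 of the 10 were called higher, Nploc4 and Ubxn6 being added (14.4% of all genes), as they were without it and innervated library 2 (16.1%). Without denervated WT library 2 or 3, or without innervated library 1 or 3, only Ubxn4 and Derl1 were called, beside 11.5, 12.3, 10.5 and 10.6% of all genes. The authors' deposited table gave an adjusted p under 0.05 for Nsfl1c, Ubxn4, Ubxn6 and Derl1, 4 of the 10, beside 26.4% of its tested genes. Markers of other cells moved with the same contrast: 6 of 8 macrophage markers rose (summed 49.0 to 157 CPM, then 213 to 371 CPM), while 5 of 6 endothelial, 5 of 5 smooth muscle and pericyte and 3 of 6 Schwann cell markers fell. Of 8 muscle fibre markers 4 fell and 1 rose, and their summed level went from 90039 to 111579 CPM down to 60436 to 71597 CPM. The part of these shifts in the values above was not tested, and in whole muscle fewer cells of a type and less RNA per cell cannot be told apart.

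Other genes of the pathway moved in both directions with denervation. Of 24 further p97 cofactors 23 were tested, of which 8 rose, 2 fell and 13 did not pass, with a median log2 fold change of 0.29, beside 16.5% of all genes called higher and 15.8% lower. Ubxn8, a UBX protein of the endoplasmic reticulum, rose by 0.86 ± 0.13 (adjusted p = 0.00118) and Plaa, a ubiquitin-binding p97 partner, by 0.51 ± 0.10 on the log2 scale (adjusted p = 0.00414). Svip, the small p97-interacting protein known as an inhibitor of ERAD, fell from 30.2 to 15.8 CPM (log2 -0.93 ± 0.13, adjusted p = 0.000656). Ubxn2a, a UBX protein related to Nsfl1c, fell from 135 to 66.8 CPM (log2 -1.02 ± 0.15, adjusted p = 0.000859). Of 20 tested ERAD genes 4 rose (median 0.18), a share near that of all genes. Ube2g2, a ubiquitin-conjugating enzyme of this pathway, rose by 0.90 ± 0.16 (adjusted p = 0.00245) and Edem2, which trims glycans of faulty glycoproteins, by 0.56 ± 0.13 (adjusted p = 0.00983). Of 7 factors that carry ubiquitinated proteins to the proteasome, Rad23b rose by 0.64 ± 0.11 and Ddi2 fell by 0.51 on the log2 scale (adjusted p = 0.00238 and 0.0317).

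Denervated PAX4 KO muscle was compared with denervated WT muscle, groups whose labels differ in PAX4. None of the 10 genes passed edgeR's test, beside 0.0186% of all genes called, 1 of the 10 had an unadjusted p under 0.05, and DESeq2 called 0 of the 10 beside 1.33% of all genes. Of the 10 log2 fold changes 9 were negative, between -0.38 and 0.09, with a median of -0.16 beside 0.01 over all genes. In 2 of 10, Vcp and Ubxn4, the PAX4 KO libraries lay wholly below the WT ones, as they did for 7.23% of all genes.

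Vcp stood at 466, 433 and 478 CPM in PAX4 KO libraries 1 to 3, below the lowest denervated WT library at 500 CPM. The log2 fold change was -0.18 ± 0.12 (adjusted p = 0.526). Ubxn4 stood at 169, 165 and 183 CPM, just under the lowest denervated WT value of 184 CPM, with -0.18 ± 0.13 (adjusted p = 0.578). Faf1 came nearest to a call and stood at 68.5, 60.7 and 70.6 CPM, against 70.5, 88.7 and 89.9 CPM in WT. Its log2 fold change was -0.32 ± 0.13 (edgeR adjusted p = 0.348). PAX4 KO library 3 overlapped the low WT library 1, the one that stood apart. Ubxn6 had the most negative estimate and the widest error, with 16.9, 13.2 and 21.5 CPM (log2 -0.38 ± 0.20, adjusted p = 0.437). Derl1 (110, 128 and 128 CPM), Nsfl1c (93.2, 87.7 and 104 CPM) and Ubxn1 (119, 118 and 133 CPM) overlapped their WT levels. So did Ufd1 at 49.3 to 51.7, Nploc4 at 94.4 to 115 and Faf2 at 20.8 to 24.1 CPM. Across the 10 genes, PAX4 KO library 2 was the lowest of its group in 8 and library 3 the highest in 8, and denervated WT library 1 was the lowest of its group in 8. PAX4 KO library 2 also stood apart in markers. Its fibro-adipogenic markers summed to 5764 CPM, against 2229 and 2331 in its group. Its muscle fibre markers summed to 50421.5 CPM, against 57418.6 and 67678.3. The part of this in the values was not tested.

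In every alternative run for this comparison 0 of the 10 were called, also without denervated WT library 1. In the authors' deposited table of this contrast 0 of the 10 had an adjusted p under 0.05, beside 1.05% of its tested genes. The log2 ratio of Ufd1 to Nploc4 was -1.04 ± 0.11 in PAX4 KO and differed from that of denervated WT by -0.02 (two-sided exact permutation p = 1). Macrophage markers summed to 396 to 577 CPM in PAX4 KO, above the 213 to 371 CPM of denervated WT, with 0 of 8 called, and the part of this in the values was not tested. Of the wider lists 0 of 23 further cofactors, 0 of 20 ERAD genes and 0 of 7 shuttle factors passed. The smallest p of each was that of Derl3, a relative of Derl1 at a mean of 0.883 against 0.169 CPM (adjusted p = 0.235), of Os9, an ERAD lectin (log2 0.42 ± 0.10, adjusted p = 0.264), and of Rad23b (log2 -0.33 ± 0.11, adjusted p = 0.313).

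Set against innervated WT muscle, denervated PAX4 KO muscle again had more Ubxn4 and Derl1. Of the 10 genes 2 were called higher and 0 lower, beside 21.8% of all genes called higher, with a median log2 fold change of 0.18 beside 0.05. In 5 of 10 the PAX4 KO libraries lay wholly above the innervated ones, as they did for 29.0% of all genes. This contrast shares the innervated libraries with that of denervated WT muscle, and its values stand beside those above as a description. Ubxn4 was 2.27-fold higher (log2 1.18 ± 0.14, adjusted p = 0.000226) and Derl1 1.48-fold (log2 0.57 ± 0.12, adjusted p = 0.00437), and both were called in all 11 alternatives. Nsfl1c, called in WT, had 0.21 ± 0.11 here (adjusted p = 0.162), a change that did not pass while the groups did not overlap. Faf2 had 0.24 ± 0.09 (adjusted p = 0.0571) and Vcp -0.06 ± 0.12 (adjusted p = 0.701). The mean of PAX4 KO lay between those of innervated and denervated WT muscle for 6 of the 10 genes, below both for Vcp, Ufd1 and Faf1 and above both for Faf2. Of 23 further cofactors 11 rose and 2 fell, of 20 ERAD genes 10 rose and 2 fell, and of 7 shuttle factors 0 rose and 2 fell, beside 21.8% of all genes called higher and 18.2% lower. Selenos, a membrane protein that links p97 to DERL1, rose by 0.73 ± 0.09 (adjusted p = 0.000251) and Ubxn8 by 0.87 ± 0.13 on the log2 scale (adjusted p = 0.000840). Svip and Ubxn2a fell by 1.20 and 1.27 on the log2 scale (adjusted p = 0.000154 and 0.000234). Edem2 rose by 0.76 ± 0.13 (adjusted p = 0.00180), and Zfand5, which delivers proteins to the proteasome, fell by 0.78 on the log2 scale (SE 0.19).

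**Figure D3:**
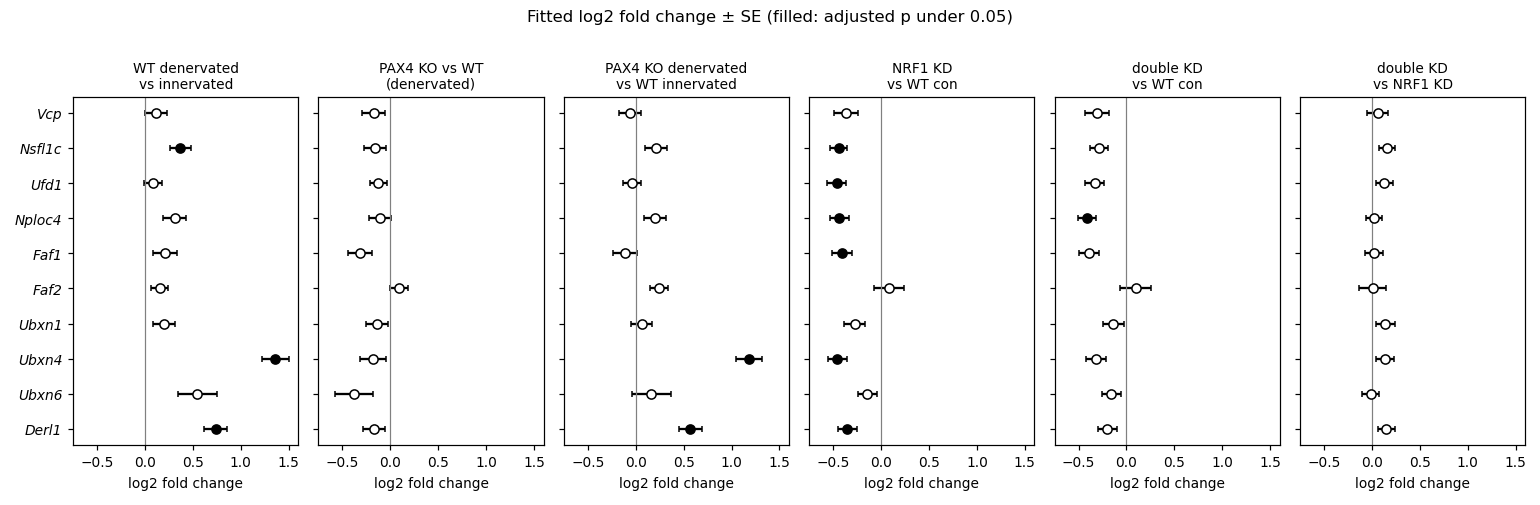
Fitted log2 fold change ± SE of each gene in the 6 comparisons (edgeR for the 3 on the left, limma for the 3 on the right), with filled points where the adjusted p was under 0.05. Ubxn4 stands at 1.36 and 1.18 against innervated muscle, and in the NRF1 KD panel 6 of 10 points are filled and negative, the lowest at -0.46.

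In the second set, the libraries labelled NRF1 KD were lower than WT con for most of these genes, by 1.28- to 1.38-fold for those that passed. Called genes (limma on log2 of normalised counts plus 1) were 6 of 10 lower and 0 higher, beside 3.72% of 15624 genes called lower. They were Nsfl1c, Ufd1, Nploc4, Faf1, Ubxn4 and Derl1. The median log2 fold change was -0.39, beside 0.00 over all genes, and 9 of 10 were negative. In 8 of 10 the NRF1 KD libraries lay wholly below both WT con libraries, as they did for 23.4% of all genes.

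Both partners of the heterodimer fell. Ufd1 stood at 2814 and 2662 normalised counts in WT con libraries 2 and 3, and at 2087, 2087 and 1796 in NRF1 KD libraries 1 to 3. Nploc4, whose promoter window holds the alpha-PAL core printed above, stood at 3326 and 3720 and then at 2712, 2687 and 2417. Neither gene overlapped between the groups. Ufd1 fell by 0.46 on the log2 scale (SE 0.10, adjusted p = 0.0158) and Nploc4 by 0.43 (SE 0.09, adjusted p = 0.0175). Their log2 ratio was -0.36 ± 0.17 in WT con and -0.39 ± 0.03 in NRF1 KD, a difference of -0.03 that ran from -0.1496 to 0.0919 when 1 library was left out (two-sided exact permutation p = 0.9, where 0.1 is the smallest that this design allows). Of the called genes with a promoter window only Nploc4 held the motif.

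Nsfl1c stood at 3705 and 3370 normalised counts in WT con and at 2645, 2712 and 2441 in NRF1 KD, without overlap. It fell by 0.44 on the log2 scale (SE 0.09, adjusted p = 0.0143), the smallest adjusted p of the 10. Vcp stood at 10097 and 8546 in WT con and at 7667, 7520 and 6451 in NRF1 KD. All 3 values were under both WT con values, but the WT con libraries themselves lay far apart, and the log2 fold change of -0.37 ± 0.12 did not pass (adjusted p = 0.0833). In the authors' deposited table Vcp passed with an adjusted p of 0.0481, and 7 of the 10 genes had an adjusted p under 0.05 there, beside 15.1% of all genes in it.

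Among the membrane cofactors, Ubxn4 stood at 8615 and 8198 normalised counts in WT con and at 5839, 6622 and 5946 in NRF1 KD. Derl1 stood at 4050 and 4338 and then at 3631, 3145 and 3108. Both lay lower without overlap and fell by 0.46 (SE 0.10, adjusted p = 0.0184) and 0.35 (SE 0.10, adjusted p = 0.0487) on the log2 scale. Faf2 was the exception in sign: it stood at 437 and 612 in WT con and at 493, 546 and 616 in NRF1 KD. The WT con values enclosed 2 of the 3 NRF1 KD values, and the log2 fold change was 0.09 ± 0.16 (adjusted p = 0.778). Of the cytosolic cofactors, Faf1 stood at 3927 and 3597 and then at 3032, 2913 and 2560, and fell by 0.41 on the log2 scale (SE 0.10, adjusted p = 0.0300). Ubxn1 (8254 and 7370, then 6537, 6961 and 5859) did not overlap and did not pass (log2 -0.28 ± 0.11, adjusted p = 0.133). Ubxn6 (4297 and 3757, then 3705, 3793 and 3409) overlapped (log2 -0.15 ± 0.10, adjusted p = 0.371).

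**Figure D4:**
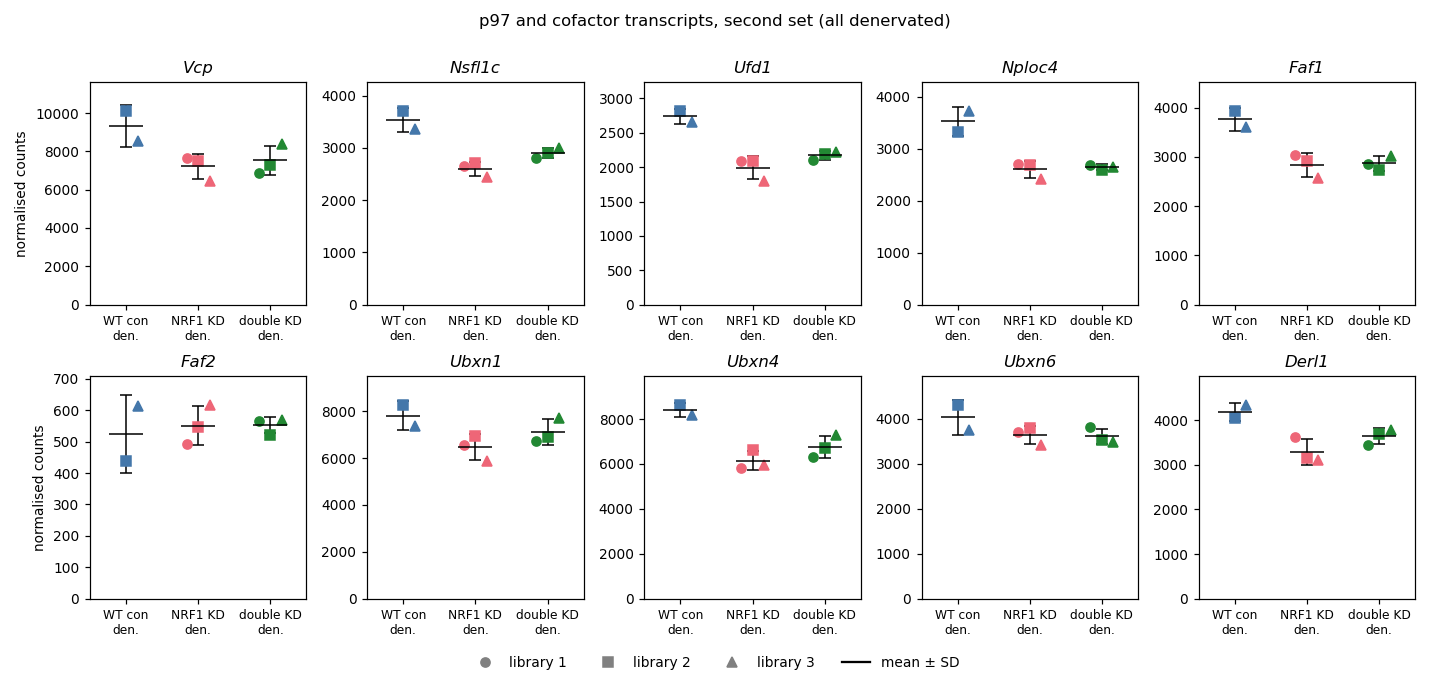
Normalised counts of each gene in the 8 libraries of the second set, all of denervated muscle (points, library numbers by shape), with the mean and SD of each group in black. For 8 of the 10 genes both WT con libraries lie above every NRF1 KD library, while the double KD libraries lie between or beside them; Faf2 is spread widely in WT con, from 437 to 612.

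These calls rested on single libraries. Without NRF1 KD library 3, the lowest of its group in 8 of the 10 genes, 0 were called (0.806% of all genes were called lower). Without WT con library 2 only Nploc4 was called (0.998%), and without WT con library 3 only Nsfl1c and Ufd1 (1.96%). The log2 fold changes of the 6 genes ran from -0.52 to -0.30 when any 1 library was left out. Markers moved with the same contrast: 7 of 7 listed macrophage markers rose (summed 4334 to 5299 normalised counts in WT con, 9332 to 17874 in NRF1 KD) and 5 of 8 denervation-response genes fell. The denervation-response sum was 120636 to 128679 in WT con and 57487 to 70273 in NRF1 KD. Of 8 muscle fibre markers 0 were called, and their summed levels overlapped between the groups. NRF1 KD library 3 had the lowest fibre sum of its group, 2205290 normalised counts, against 2530850 and 2869390. Its denervation-response sum was also lowest, 57487 against 68611 and 70273. Its fibro-adipogenic sum was highest, 64968 against 41274 and 45196, while its macrophage sum of 16454 lay between those of libraries 1 and 2. The part of these shifts in the values was not tested.

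In the wider pathway lists few genes passed, beside 7.58% of all genes called higher and 3.72% lower. Of 23 further p97 cofactors 0 passed (median log2 fold change -0.13), the smallest p being that of Aspscr1 (TUG), a UBX protein that holds glucose transporter vesicles in muscle (-0.30 ± 0.10, adjusted p = 0.0853). Of 19 tested ERAD genes Edem1, a lectin of the pathway, rose from 341 to 693 normalised counts (log2 1.01 ± 0.17, adjusted p = 0.00676) and Herpud2 fell by 0.37 on the log2 scale (adjusted p = 0.0470). Among the shuttle factors Zfand5 fell by 0.49 on the log2 scale (SE 0.11, adjusted p = 0.0178). No test set these lists against the 10 genes.

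The double KD libraries also lay below WT con for most of these genes. This contrast shares the WT con libraries with the NRF1 KD contrast, so the values are given side by side. Of the 10 genes 1 was called lower and 0 higher, beside 1.70% of all genes called lower, with a median log2 fold change of -0.30 beside 0.02 over all genes. In 7 of 10 the double KD libraries lay wholly below both WT con libraries, as they did for 17.6% of all genes. The called gene was Nploc4, at 2694, 2586 and 2646 normalised counts, well under the WT con values of 3326 and 3720 (fell by 0.41 on the log2 scale, SE 0.09, adjusted p = 0.0393). Leaving out any 1 of the 5 libraries ended this call, with 0 of the 10 called. Without double KD library 1, 2 or 3, 1.59, 0.384 and 1.29% of all genes were called lower. Without WT con library 2 or 3 these shares were 0.256 and 1.40%. The call also ended in edgeR on the recovered reads (1.48% of all genes lower) and in a fit of the compared groups alone (0.544%). In the authors' deposited table Nploc4 and Faf1 passed (adjusted p of 0.00638 and 0.0226), beside 8.53% of all genes.

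Faf1 stood at 2863, 2724 and 3026 in double KD (log2 -0.39 ± 0.10, adjusted p = 0.0610) and Ufd1 at 2101, 2196 and 2227 (-0.33 ± 0.10, adjusted p = 0.0842). Both lay below WT con without overlap. Ubxn4 at 6289, 6706 and 7278 (-0.32 ± 0.10, adjusted p = 0.103) and Nsfl1c at 2816, 2900 and 2992 (-0.28 ± 0.09, adjusted p = 0.108) were also below without overlap. Vcp stood at 6895, 7306 and 8383, just under the lower WT con value of 8546 (-0.31 ± 0.12, adjusted p = 0.185). Derl1 (3453, 3700 and 3789) had -0.20 ± 0.10 (adjusted p = 0.279), and Ubxn1 (-0.14 ± 0.11), Ubxn6 (-0.16 ± 0.10) and Faf2 (0.09 ± 0.16) overlapped WT con. Macrophage markers summed to 7605 to 11667 normalised counts in double KD, with 1 of 7 called, and denervation-response genes to 65849 to 70567. The part of these in the values was not tested. Of the wider lists 0 of 23 further cofactors and 0 of 19 ERAD genes passed, the nearest being Ube4b, a ubiquitin chain-extending ligase (-0.29 ± 0.09, adjusted p = 0.0967), and the ligase Rnf185 (-0.36 ± 0.11, adjusted p = 0.0854). Of 7 shuttle factors 1 was called lower, beside 1.70% of all genes. All 7 had negative estimates, with a median log2 fold change of -0.30.

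Double KD and NRF1 KD libraries, whose labels differ in PAX4, were compared directly. None of the 10 genes was called, beside 0.134% of all genes, 0 had an unadjusted p under 0.05, and edgeR on the recovered reads called 0 beside 0.128%. Of the 10 estimates 9 were positive, from -0.01 for Ubxn6 to 0.16 ± 0.08 for Nsfl1c (adjusted p = 0.501), with a median of 0.10 beside 0.01 over all genes. For 8 of the 10 genes the double KD mean lay between those of NRF1 KD and WT con. Only Nsfl1c and Ufd1 did not overlap, both higher in double KD, as did 8.03% of all genes. The log2 ratio of Ufd1 to Nploc4 was -0.28 ± 0.07 in double KD and 0.11 above that of NRF1 KD (two-sided exact permutation p = 0.1, the smallest possible, 0.2 adjusted). The sign of the small estimates for Vcp, Nploc4, Faf1, Faf2 and Ubxn6 depended on single libraries.

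In the first set, where the ranking was made, the levels of Vcp ran closest to those of Dnaja2, Ppp6c and Mkln1. Dnaja2 is an HSP40 co-chaperone, Ppp6c a catalytic subunit of protein phosphatase 6 and Mkln1 muskelin. Among the 4273 genes that averaged 30 CPM or more, their log2 levels had Pearson r of 0.968, 0.963 and 0.953 with Vcp over the 9 libraries of the first set, and 0.939, 0.887 and 0.892 over the 8 of the second. Among the cofactors r with Vcp in the first set was highest for Faf1 at 0.855 and Ufd1 at 0.832, low for Ubxn4 at 0.184, and negative for Faf2 at -0.27. In the second set Faf1 (0.935), Ubxn1 (0.925), Ufd1 (0.915) and Nsfl1c (0.908) were highest, and Faf2 was again negative (-0.59). These values share libraries and their scaling and are a description.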

How the data were processed

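Skeletal muscle RNA, extracted with TRIzol, went into libraries made with the SMARTER mRNA-Seq kit, per the labels' protocols. Per the submitters' processing notes the builds were GRCm38 and mm10, while an aligner, counting tool, annotation and strandedness were not given in the sources used here. Deposited values of the first set are raw counts of each gene, as the authors made them. Of the second set they deposited log2 values on the variance-stabilised scale of DESeq2, and a signal column that holds the mean of counts divided by size factors. Further deposited columns hold the authors' log2 fold changes, a score (the Wald statistic), p-values and adjusted p-values. Columns were tied to groups by their names and the labels, with 0 per-sample columns left unmapped, and libraries of the first set are numbered by ascending column number. Of 23 labelled samples 6 had no column and were not analysed here: WT con library 1, a further innervated WT group and a WT group denervated for 14 d.

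The log2 values were inverted to normalised counts, whose means matched the deposited signal within 3.34e-07%, and reads recovered from them were whole in 100% of cases (tolerance 0.05). Raw counts of 16146 genes kept by filterByExpr were tested in edgeR 4.0.16 (R 4.3.3) by the quasi-likelihood F test with TMM scaling, and normalised counts of 15624 genes with limma 3.58.1 on log2 of the value plus 1. Fold changes on that scale understate those of low genes. All 3 groups of a set shared a fit, and p-values were adjusted over all genes tested. The code was tested on simulated data with known fold changes. Alternatives were DESeq2 1.42.0, other scalings, filters and pseudocounts, fits of 2 groups only, a replicate block, and each library left out.

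All 10 members are named in every comparison, with up to 2 called genes per direction of each wider list by smallest adjusted p, or the 1 gene of smallest p where none was called. Likeness to Vcp was ranked by Pearson r of log2(CPM + 1) in the first set only. The members and lists were chosen with earlier results of these data known. A planned search for protein motifs was not made. Some genes that met the naming rule are not reported here.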

Additional observations from a re-analysis of the deposited data

How the results depend on the processing

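Across the alternatives, 645 member fold changes kept their direction and side of the threshold, 40 lost and 8 gained a call, and 17 changed sign, all of them uncalled. The number of members called was 2 to 5 for denervation of WT muscle when 1 library was left out, and 5 without innervated library 2 and denervated WT library 1 together. It was 0 to 6 for NRF1 KD and 0 to 0 for double KD against WT con, 0 in both PAX4 KO against denervated WT and double KD against NRF1 KD, and 2 in PAX4 KO against innervated WT. For double KD against WT con it was also 0 in edgeR on recovered reads and with only the compared groups in the fit. With a replicate block 3 members were called for denervation of WT muscle (Ubxn4, Ubxn6 and Derl1), beside 16.5% of all genes called higher. In the second set the block called 0 members for NRF1 KD, beside 0.749% of all genes called lower (3.72% in the main fit). It called 0 for double KD against WT con, beside 0.358% called lower (1.70% in the main fit). For double KD against NRF1 KD it called 0, beside 0.0576% of all genes in either direction. In WT muscle, same-numbered libraries had positive r of 0.203, 0.0492 and 0.318, and each correlated best with its own number. In the second set r of same-numbered libraries ran from -0.22 to 0.14. These values do not decide whether the numbers mark pairs. The main tests left the numbers out, and the block was run as an alternative. No paired analysis was possible for the 2 PAX4 KO comparisons because their columns share no numbers. Some of these fits held fewer libraries, and the cause of the changes was not tested.

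Fold changes (log2) that changed sign without 1 library ran from -0.0313 to 0.3203 for Ubxn6 and from -0.0015 to 0.10 for Ubxn1 in PAX4 KO against innervated WT. For Faf2 they ran from -0.16 to 0.33 in NRF1 KD and from -0.15 to 0.34 in double KD against WT con. In double KD against NRF1 KD they ran from -0.0189 to 0.122 for Vcp, -0.0313 to 0.0514 for Nploc4, -0.0511 to 0.0709 for Faf1, -0.069 to 0.0918 for Faf2 and -0.0584 to 0.0185 for Ubxn6, and Faf2 was at -0.0047 in edgeR on recovered reads. The difference in the log2 ratio of Ufd1 to Nploc4 ran from -0.0685 to 0.0383 for PAX4 KO against denervated WT, -0.1496 to 0.0919 for NRF1 KD and -0.0398 to 0.2017 for double KD against WT con. The second set had only 2 WT con libraries, and how often its tests call changes of the size seen here was not measured.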
